A study of Mus musculus with 21 samples.

Results

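The genes described here are 40 genes of mitosis and cytokinesis, the machinery by which a cell condenses its chromosomes, parts them on a spindle and divides. They were taken by symbol from a table of 14273 mouse genes, and all 40 were present. The list runs from cyclins and mitotic kinases through the spindle checkpoint, kinetochore, spindle kinesins and condensin to the proteins of the cleavage furrow. None of the 40 genes had a blank in any of the 21 libraries, the lowest value was 1.99, and all 40 passed the filter on low values.

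RNA was sequenced from cells sorted from spleens of C57BL/6 mice, in 7 groups of 3 libraries. Tumor-bearing mice gave CD45+ and CD45- cells that carried Ter119 and CD71, and mice with anemia and neonatal mice gave the same pair of fractions. Ter119 is an erythroid surface antigen, CD71 is the transferrin receptor of erythroid precursors, and CD45 is the leukocyte phosphatase encoded by Ptprc. The last group held MDSC (myeloid-derived suppressor cells), which were gated by CD11b and Gr1 in tumor-bearing mice. The tumor, the cause of the anemia, any agent given and the ages are not given in the sources used here, and no group of healthy adult mice was analysed here. Nothing in the labels tells if libraries within a group are from different animals or sorts, so the p-values measure the spread between libraries, which may be technical. Spleen is the tissue given for all libraries, although the extraction protocol names retinas.

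Entry into mitosis is driven by cyclin-dependent kinase 1 (CDK1) bound to cyclins A and B, and Polo-like and Aurora kinases then build the spindle. The spindle checkpoint holds cells in metaphase until every kinetochore is attached, after which the anaphase-promoting complex (APC/C) degrades securin and cyclin B and separase cuts cohesin. Erythroid precursors divide several times as they mature and then leave the cell cycle before the nucleus is expelled.

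Many promoters of this kind share a short element near the transcription start, TTTGAA, known as the cell cycle genes homology region, often with CCAAT boxes upstream. Promoters from 250 bases before to 50 bases after the start were found for 34 of the 40 genes in RefSeq (build GRCm38.p6). The 6 genes with no entry were Aurkb, Ccna2, Incenp, Kif20a, Smc4 and Tpx2. TTTGAA (or its reverse complement TTCAAA) was searched on both strands, as was CCAAT (or ATTGG), and a match of one can share at most 1 letter with a match of the other. Of the 34 promoters, 26 (76.5%) held TTTGAA, against 18.1% of 27025 promoters of all genes. CCAAT was also in 26 of 34 (76.5%), against 37.9% of all genes. Both motifs were in 23 (67.6%), against 7.12% of all genes, and TTTGAA lay within 50 bases of the start in 22 (64.7%), against 4.92%. Neither motif was in 5 promoters (14.7%, against 51.1% of all genes), those of Nuf2, Nusap1, Mad2l1, Pttg1 and Birc5. The 100 bases that end just before the start are printed for the 7 genes whose TTTGAA lies wholly within the last 40 of them. In many of the other promoters TTTGAA began after the start, as at 40, 32 and 30 bases for Bub1b, Aurka and Plk1. Such matches lie outside the printed bases. The 100 bases of Birc5, Pttg1 and Mad2l1 follow as the genes with neither motif among the 22 whose values are given library by library. Capitals mark TTTGAA or TTCAAA and CCAAT or ATTGG, and a match describes the letters only. The regions are chr2:164769829-164769928 (+ strand) for Ube2c, chr4:118437344-118437443 (- strand) for Cdc20, chr5:45669825-45669924 (+ strand) for Ncapg, chr10:69352913-69353012 (- strand) for Cdk1, chr11:99024190-99024289 (- strand) for Top2a, chr15:102296193-102296292 (+ strand) for Espl1 and chr19:37376282-37376381 (+ strand) for Kif11. They are chr11:117849137-117849236 (+ strand) for Birc5, chr11:43425982-43426081 (- strand) for Pttg1 and chr6:66535121-66535220 (+ strand) for Mad2l1.
Ube2c: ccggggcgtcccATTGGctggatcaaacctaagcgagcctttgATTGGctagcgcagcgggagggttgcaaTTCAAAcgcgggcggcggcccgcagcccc
Cdc20: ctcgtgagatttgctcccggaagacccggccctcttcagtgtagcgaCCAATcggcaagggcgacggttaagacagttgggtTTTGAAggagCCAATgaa
Ncapg: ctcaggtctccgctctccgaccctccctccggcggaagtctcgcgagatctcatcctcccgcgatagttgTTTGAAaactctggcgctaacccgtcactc
Cdk1: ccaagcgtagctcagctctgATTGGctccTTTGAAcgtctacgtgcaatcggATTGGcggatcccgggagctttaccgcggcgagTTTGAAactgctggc
Top2a: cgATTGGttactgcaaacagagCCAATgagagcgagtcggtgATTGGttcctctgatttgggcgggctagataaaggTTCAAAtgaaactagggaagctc
Espl1: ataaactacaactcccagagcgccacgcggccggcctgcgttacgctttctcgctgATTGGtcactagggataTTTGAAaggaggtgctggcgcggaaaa
Kif11: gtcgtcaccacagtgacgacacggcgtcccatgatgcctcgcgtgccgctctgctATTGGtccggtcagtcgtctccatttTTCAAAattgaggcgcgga
Birc5: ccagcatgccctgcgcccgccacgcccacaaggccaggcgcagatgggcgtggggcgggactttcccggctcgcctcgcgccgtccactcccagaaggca
Pttg1: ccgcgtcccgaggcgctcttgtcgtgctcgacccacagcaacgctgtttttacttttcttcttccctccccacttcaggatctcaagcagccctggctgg
Mad2l1: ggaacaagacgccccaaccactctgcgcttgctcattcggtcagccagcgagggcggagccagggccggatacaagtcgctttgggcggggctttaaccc

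Values below are 2 raised to the log2 number in the deposited table, their scale is not named in the sources used here, and read depth is not given. The sum over all genes ran from 227961 to 349261 between libraries. Values set libraries beside each other for 1 gene, never 1 gene beside another, because a scale per length is not known. Fold changes are log2 differences of value + 1 with their standard error from limma, and "passed" means an adjusted p (Benjamini-Hochberg, all tested genes) under 0.05. Ptprc followed the CD45 gate. Ptprc stood at 130 to 386 in tumor CD45+ cells, against 1.23 to 2.96 in tumor CD45- cells, and Tfrc, which encodes CD71, at 70.2 to 161 in tumor CD45+ cells, against 598 to 1495 in tumor CD45- cells and 36 to 54.3 in MDSC. Itgam, which encodes CD11b, stood at 67.6 to 130 in tumor CD45+ cells, against 0.027 to 0.139 in tumor CD45- cells and 197 to 270 in MDSC. The CD45+ fractions held RNA of several lineages. Of the 9 erythroid markers, 9 were lower in CD45+ than in CD45- cells in each of the tumor, anemia and neonatal comparisons, with medians of -3.15, -2.61 and -2.99. In all genes 10.9%, 11.3% and 10.3% were lower in the same order. The 12 neutrophil and MDSC markers were all higher in CD45+ cells in all 3 comparisons, as were the 6 B cell markers, against 50.2%, 47.4% and 49.6% of all genes higher in tumor-bearing mice, anemia and neonates. T and NK cell markers were higher for 7, 7 and 5 of 7 in tumor-bearing mice, anemia and neonates, monocyte markers for 4 of 6 in each, which is near that share of all genes, and early progenitor markers for 4, 1 and 4 of 4. Of 3 megakaryocyte markers, 1 was lower in the tumor comparison, 1 lower in anemia and 1 higher in neonates. Neutrophil marker values summed to 11836 to 30631 in tumor CD45+ cells, against 32.6 to 382 in tumor CD45- cells. In CD45+ cells of anemia they summed to 493 to 2816, against 9.14 to 14.8 in CD45- cells, and B cell marker values summed to 718 to 869, against 3.29 to 11.1. In neonates the neutrophil sum was 9841 to 12451 in CD45+ cells, against 123 to 217 in CD45- cells. MDSC libraries held 46757 to 74375 of neutrophil markers.

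The genes of this list stood low together most clearly in 2 libraries. Replicate 3 of tumor CD45+ cells had the lowest value of its group in 37 of the 40 genes, at a median of 0.448 times the mean of the other libraries. Replicate 3 of anemia CD45+ cells was lowest in 40 of 40, at 0.404 times. In tumor CD45+ replicate 3 the neutrophil sum was 11836, against 29746 and 30631 in replicates 1 and 2, and the B cell sum was 498, against 140 and 192. In anemia CD45+ replicate 3 the erythroid marker sum was 1954, against 23704 and 15423 in replicates 1 and 2, and the neutrophil sum was 2816, against 868 and 493. Replicate 3 of neonatal CD45+ cells was lowest in 29 of 40, at 0.754 times, with an erythroid sum of 4076, against 10495 and 15515. Replicate 3 was lowest in 28 of 40 genes in anemia CD45- cells, 19 in tumor CD45-, 14 in neonatal CD45- and 13 in MDSC. The erythroid sum was lowest in replicate 3 of every group. In tumor CD45- cells it was 36217, against 100650 and 63145. In anemia CD45- cells it was 20346, against 77610 and 63750, and in neonatal CD45- cells 54156, against 77860 and 80539. The part of these sums in the results was not tested, and counts of calls and medians that move by over 1.5 times or turn without replicate 3 of tumor CD45+ or anemia CD45+ cells are given both ways.

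Mitotic genes were at their highest in CD45- erythroid cells of all 3 states and at their lowest in CD45+ cells of anemia. The group with the highest mean was anemia CD45- for 17 genes, tumor CD45- for 13 and neonatal CD45- for 10. The lowest mean was in anemia CD45+ cells for 38 of 40 genes. The exceptions were Birc5, lowest in tumor CD45+ cells, and Pttg1, lowest in MDSC. As a share of each gene's highest group mean, the median over the 40 genes was 36.8% in tumor CD45+ cells and 90.4% in tumor CD45- cells. It was 19.9% in anemia CD45+ cells and 96.6% in anemia CD45- cells, 36.7% in neonatal CD45+ cells and 90.9% in neonatal CD45- cells, and 42.3% in MDSC. The medians of tumor CD45+ cells, neonatal CD45+ cells and MDSC were thus near each other, as were those of the 3 CD45- groups, while that of anemia CD45+ cells was lower. Without its replicate 3 the anemia CD45+ median was 25%, and the group was lowest for 32 of 40 genes. For tumor CD45+ cells the median was 44.5% without their replicate 3.

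**Figure D1:**
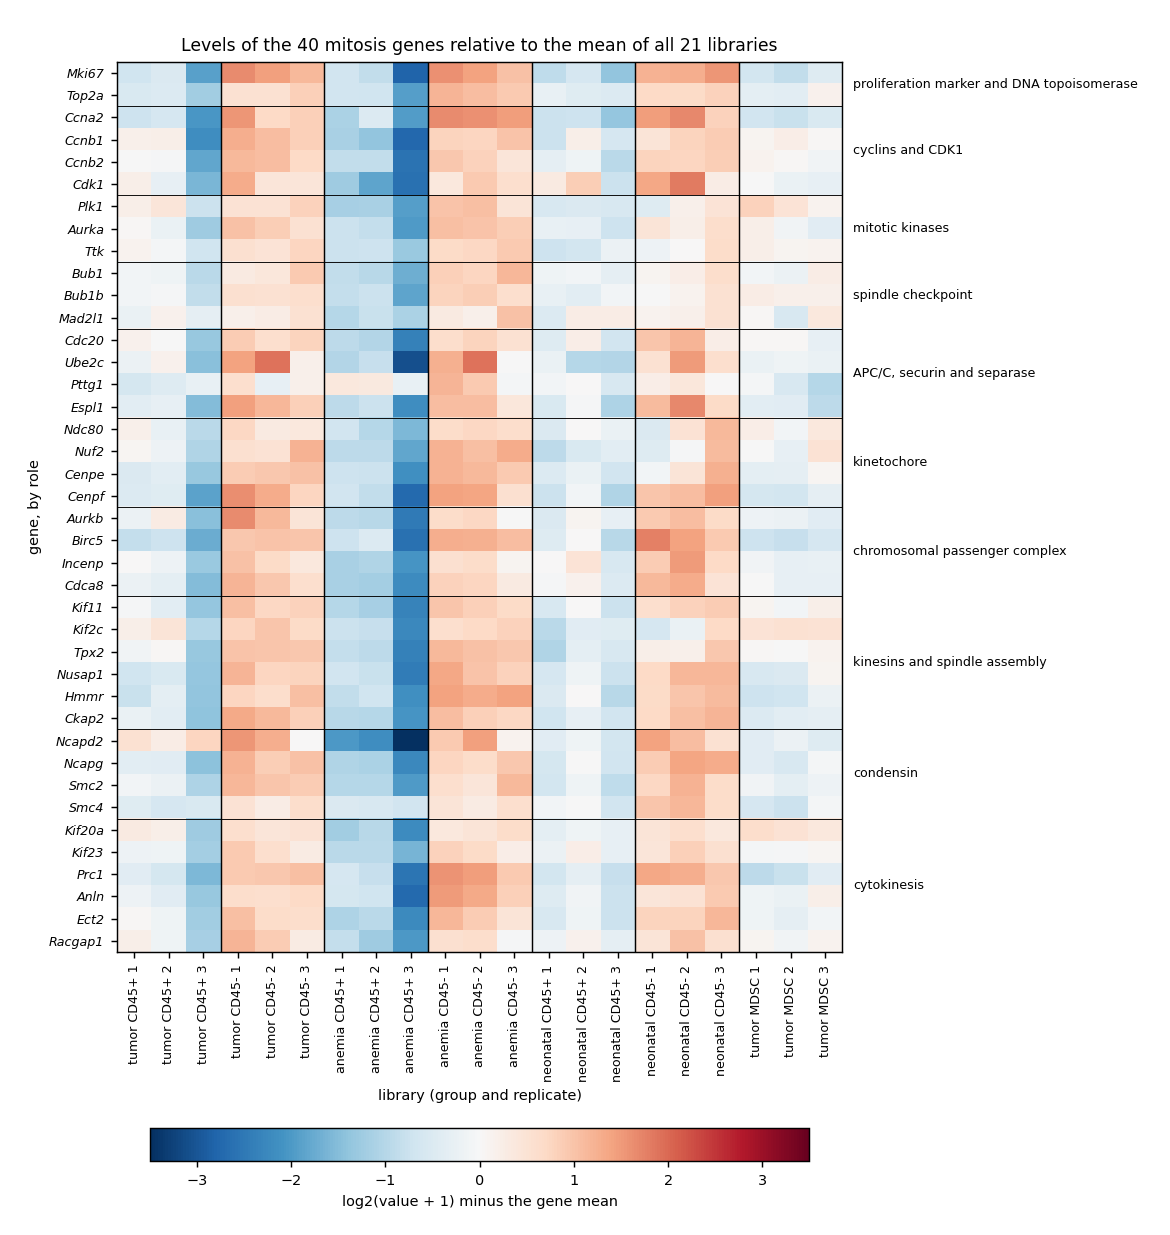
Level of each of the 40 genes (rows, by role) in each of the 21 libraries (columns), as log2(value + 1) minus the mean of the gene over all libraries. The CD45- columns are red for most genes, and the deepest blue is in replicate 3 of anemia CD45+ cells, which was the lowest of its group in 40 of 40 genes.

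The CD45 contrast sets CD45+ cells beside CD45- cells sorted by the same Ter119 and CD71 gate, and the CD45+ fractions held RNA of several lineages. In every state the 40 genes were on the lower side in CD45+ cells. In tumor-bearing mice 33 fell, none rose and 7 did not pass, with a median log2 fold change of -1.33 (range -2.44 to -0.43). In all genes tested 10.9% fell in that comparison and the median was 0.75. In anemia 39 fell and 1 did not pass, with a median of -2.20 (range -3.38 to -0.53), against 11.3% of all genes falling and a median of 0.68. In neonates 27 fell and 13 did not pass, with a median of -1.09 (range -2.29 to -0.25), against 10.3% of all genes and a median of 0.75. The 3 CD45+ libraries all lay below the 3 CD45- libraries for 38, 39 and 35 of the 40 genes in tumor-bearing mice, anemia and neonates, against 12.5%, 13.5% and 12% of all genes. In these bulk samples fewer dividing cells and less RNA per cell cannot be told apart. Without replicate 3 of tumor CD45+ cells, 19 genes fell in tumor-bearing mice with a median of -0.95. The 14 lost there were Anln, Aurkb, Bub1, Bub1b, Ccnb1, Ccnb2, Cdc20, Cdk1, Ect2, Incenp, Nuf2, Racgap1, Ttk and Ube2c. Without both that library and replicate 3 of anemia CD45+ cells, 26 fell in tumor-bearing mice and 39 in anemia. Leaving out any single neonatal library lost 3 to 9 of the neonatal calls. Those lost in any such fit were Anln, Aurka, Aurkb, Ccnb2, Cdc20, Cdca8, Cenpe, Incenp, Ncapd2, Tpx2, Ttk and Ube2c. With median-ratio scaling, which brought the median of all genes to 0.06, 0.04 and 0.06, all 40 genes fell in all 3 states. In that fit 2852, 2812 and 2694 of 11004 genes fell in tumor-bearing mice, anemia and neonates, a larger share than in the main fit. Of the calls among all genes 82.2%, 80.7% and 82.8% were higher in CD45+ cells in tumor-bearing mice, anemia and neonates, against 55.5%, 53.9% and 55.1% with median-ratio scaling and 48.6%, 48.9% and 51.1% with quantile normalization.

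**Figure D2:**
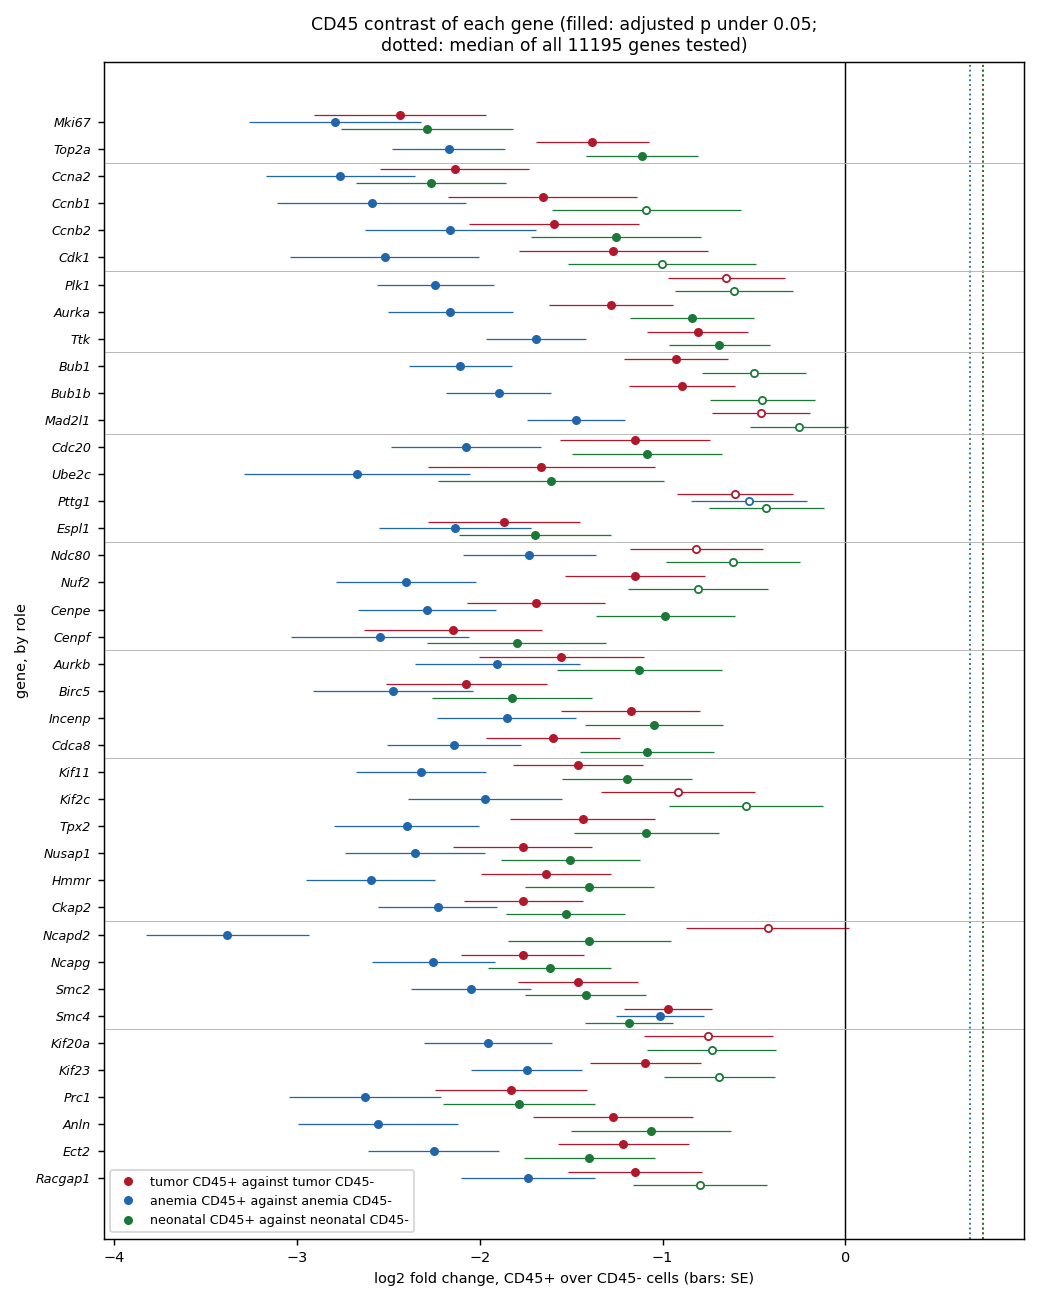
Log2 fold change of CD45+ over CD45- cells for each gene in tumor-bearing mice (red), anemia (blue) and neonates (green), with standard errors as bars. All points lie below 0, filled points passed at an adjusted p under 0.05, and the dotted lines at 0.75, 0.68 and 0.75 are the medians of all genes tested.

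Mki67 encodes Ki-67, the coat protein of mitotic chromosomes used as a mark of cycling cells, and Top2a encodes the topoisomerase that untangles sister DNA. Mki67 stood at 241, 273 and 105 in replicates 1, 2 and 3 of tumor CD45+ cells, against 1225, 1058 and 864 in tumor CD45- cells. In anemia it stood at 246, 215 and 54.95 in CD45+ cells, against 1185, 1044 and 798 in CD45- cells. In neonates it stood at 211, 259 and 151 in CD45+ cells, against 908, 940.0 and 1147 in CD45- cells. Every CD45+ library was below every CD45- library, and the low replicate 3 of tumor and of anemia CD45+ cells shows in this gene too. The log2 fold changes were -2.44 ± 0.47 (adjusted p = 2.8e-04) in tumor-bearing mice, -2.79 ± 0.47 (adjusted p = 8.0e-05) in anemia and -2.29 ± 0.47 (adjusted p = 5.0e-04) in neonates. In tumor-bearing mice and in neonates this was the largest change of the 40 genes. Top2a stood at 127, 132 and 79.6 in tumor CD45+ cells, against 267, 272 and 333 in tumor CD45- cells, and at 115, 114 and 47.8 in anemia CD45+ cells, against 426, 397 and 349.5 in anemia CD45- cells. Neonatal CD45+ cells had 155, 139 and 132 of Top2a, against 299, 296 and 329 in CD45- cells. The Top2a libraries did not overlap in any state, and the log2 fold changes were -1.38 ± 0.31, -2.17 ± 0.31 and -1.11 ± 0.31 in the same order, and all 3 passed.

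**Figure D3:**
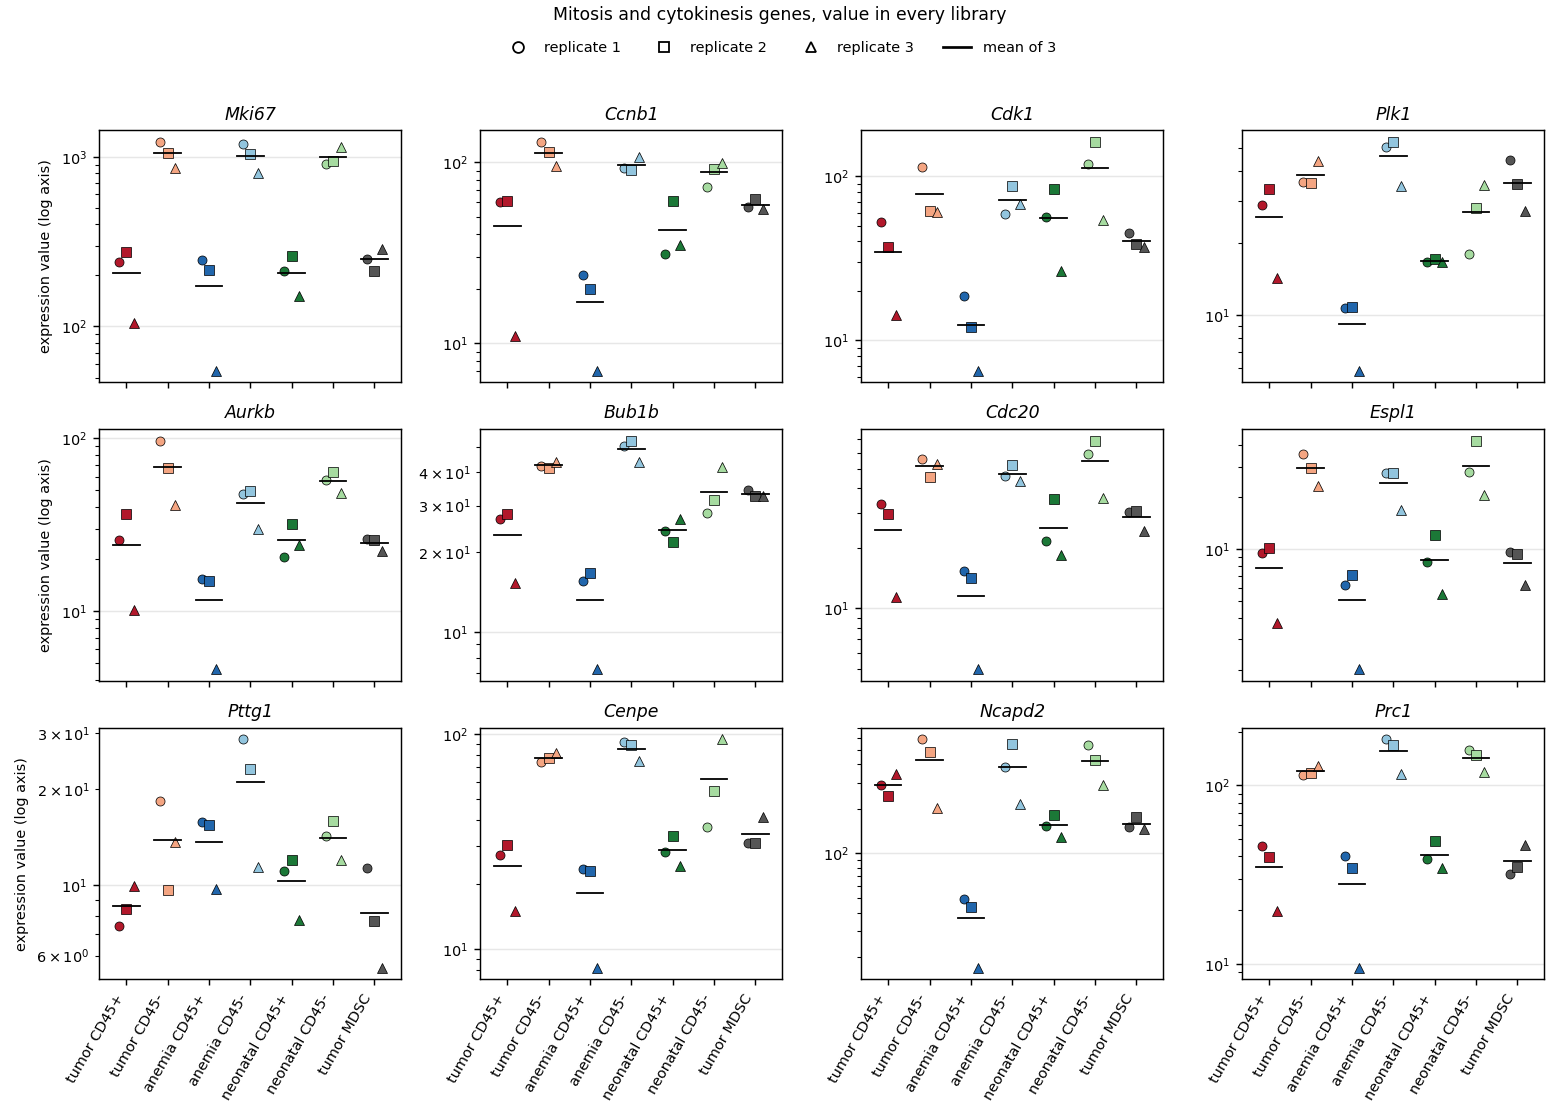
Value of 12 of the genes in each library on a log axis, with the replicate number as the marker shape and the mean of 3 libraries as a bar. CD45+ groups sit below their CD45- groups except where libraries overlap, as they do for Pttg1 in tumor-bearing mice and in anemia, Cdk1 in neonates and Ncapd2 in tumor-bearing mice.

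Of the 4 genes for cyclins and CDK1, 4 fell in tumor-bearing mice, 4 in anemia and 2 in neonates. Ccna2 encodes cyclin A2, which acts in S phase and at entry into mitosis. It stood at 40.6, 45.02 and 15.9 in tumor CD45+ cells, against 199, 111 and 122 in tumor CD45- cells, and at 30.8, 48.9 and 16.8 in anemia CD45+ cells, against 217, 210.2 and 190.2 in anemia CD45- cells. Neonatal CD45+ cells had 39.6, 40.6 and 25.8, against 189.5, 219 and 119 in neonatal CD45- cells. No CD45+ library of Ccna2 reached any CD45- library of its state, and the log2 fold changes were -2.14 ± 0.41, -2.76 ± 0.41 and -2.27 ± 0.41 for tumor, anemia and neonates. Ccnb1, which encodes the mitotic cyclin B1, had 60.4, 61.5 and 11.03 in tumor CD45+ cells, against 129.7, 114 and 95.2 in tumor CD45- cells. Its values in anemia were 23.9, 19.98 and 7.07 in CD45+ cells, against 92.5, 90.8 and 107 in CD45- cells. Neonatal CD45+ cells had 31.1, 61.4 and 34.98 of Ccnb1, against 73.2, 92.2 and 99.1 in CD45- cells. The libraries did not overlap in any state, but only the changes in tumor-bearing mice (-1.66 ± 0.52) and anemia (-2.59 ± 0.52) passed, and the neonatal one (-1.09 ± 0.52, adjusted p = 0.077) did not.

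Cdk1, the kinase itself, had replicate 3 lowest in all 3 CD45+ groups. It stood at 52.5, 37.2 and 14.3 in tumor CD45+ cells, against 113, 61.1 and 60.6 in tumor CD45- cells. Anemia CD45+ cells had 18.7, 11.97 and 6.52, against 58.9, 86.8 and 67.96 in anemia CD45- cells, and neonatal CD45+ cells had 56.2, 83.8 and 26.5, against 118, 162 and 54.3 in neonatal CD45- cells. In neonates the groups overlapped, because CD45+ replicate 2 was above CD45- replicate 3. The log2 fold change was -1.27 ± 0.52 (adjusted p = 0.042) in tumor-bearing mice, -2.52 ± 0.52 (adjusted p = 4.8e-04) in anemia and -1.0 ± 0.52 (adjusted p = 0.1) in neonates. The tumor value no longer passed when tumor CD45+ replicate 2 or 3 or tumor CD45- replicate 1 or 2 was left out. Ccnb2, for cyclin B2, fell in all 3 states, at -1.59 ± 0.47, -2.16 ± 0.47 and -1.25 ± 0.47.

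Among the 3 mitotic kinase genes beside Aurkb, Aurka and Ttk fell in each state and Plk1 fell in anemia alone. Plk1 encodes the Polo-like kinase that acts from entry into mitosis to cytokinesis. Its values were 28.9, 33.7 and 14.3 in tumor CD45+ cells, against 36.2, 35.6 and 44.3 in tumor CD45- cells. In anemia they were 10.7, 10.8 and 5.83 in CD45+ cells, against 50.8, 53.3 and 34.7 in CD45- cells. The neonatal values were 16.7, 17.1 and 16.6 in CD45+ cells, against 18.1, 28.1 and 35.1 in CD45- cells. Plk1 was lower in all CD45+ libraries of a state than in the CD45- libraries, with gaps that were small in tumor-bearing mice and neonates and wide in anemia. The log2 fold changes were -0.65 ± 0.32 (adjusted p = 0.087), -2.24 ± 0.32 (adjusted p = 1.4e-05) and -0.61 ± 0.32 (adjusted p = 0.11) for tumor, anemia and neonates. Aurka, for the Aurora kinase of the spindle poles, changed by -1.28 ± 0.34, -2.16 ± 0.34 and -0.84 ± 0.34 in the same order. Ttk, for the checkpoint kinase MPS1, changed by -0.81 ± 0.27, -1.69 ± 0.27 and -0.69 ± 0.27.

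The spindle checkpoint genes Bub1, Bub1b and Mad2l1 fell in anemia for 3 of 3, in tumor-bearing mice for 2 of 3 and in neonates for 0 of 3. Bub1b encodes BUBR1, a part of the complex that inhibits the APC/C. It stood at 26.6, 27.8 and 15.3 in tumor CD45+ cells, against 42.4, 41.6 and 43.9 in tumor CD45- cells, and at 15.5, 16.7 and 7.23 in anemia CD45+ cells, against 50.3, 52.8 and 43.97 in anemia CD45- cells. Neonatal CD45+ cells had 23.9, 21.8 and 26.8, against 28.1, 31.6 and 41.8 in neonatal CD45- cells. The neonatal groups were apart by little, the others by more, and the log2 fold changes were -0.89 ± 0.29 (adjusted p = 0.013) in tumor-bearing mice, -1.90 ± 0.29 (adjusted p = 2.8e-05) in anemia and -0.46 ± 0.29 (adjusted p = 0.18) in neonates. Mad2l1 encodes MAD2, which binds the APC/C activator CDC20. Its values were 12.3, 16.6 and 11.6 in tumor CD45+ cells, against 16.9, 17.8 and 21.9 in tumor CD45- cells. In anemia they were 6.91, 8.14 and 6.29 in CD45+ cells, against 18.6, 16.8 and 31.2 in CD45- cells, and in neonates 10.3, 17.9 and 17.7 in CD45+ cells, against 16.1, 16.6 and 21.5 in CD45- cells. Only in anemia did its change pass (-1.47 ± 0.27, adjusted p = 1.7e-04), whereas the tumor value was -0.46 ± 0.27 (adjusted p = 0.14) and the neonatal value, with overlapping libraries, -0.25 ± 0.27 (adjusted p = 0.43). Bub1, for the kinase that recruits the other checkpoint proteins to kinetochores, had log2 fold changes of -0.93 ± 0.28 in tumor-bearing mice, -2.11 ± 0.28 in anemia and -0.50 ± 0.28 in neonates, and the neonatal value did not pass (adjusted p = 0.14).

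Of the genes that bring about anaphase, Cdc20, Ube2c and Espl1 fell in all 3 states and Pttg1 in none. Cdc20 encodes the APC/C activator of metaphase, and Ube2c the ubiquitin-conjugating enzyme that works with the complex. Cdc20 stood at 33.2, 29.5 and 11.4 in tumor CD45+ cells, against 56.1, 45.2 and 52.4 in tumor CD45- cells, and its log2 fold change was -1.15 ± 0.41 (adjusted p = 0.023). In anemia it stood at 15.4, 14.2 and 4.97 in CD45+ cells, against 46.04, 52.1 and 43.5 in CD45- cells, a change of -2.07 ± 0.41. In neonates it stood at 21.7, 35.4 and 18.6 in CD45+ cells, against 59.2, 69 and 35.5 in CD45- cells, a change of -1.08 ± 0.41 (adjusted p = 0.031). The neonatal gap was narrow, since CD45+ replicate 2 nearly met CD45- replicate 3. Ube2c stood at 67.03, 87.1 and 27.8 in tumor CD45+ cells, against 208, 292 and 88.5 in tumor CD45- cells, and changed by -1.66 ± 0.62 (adjusted p = 0.028). Its values in anemia were 38.04, 43.9 and 8.41 in CD45+ cells, against 186, 292 and 76.9 in CD45- cells, a change of -2.67 ± 0.62. Neonatal CD45+ cells had 66.5, 38.7 and 37.9 of Ube2c, against 112, 221 and 117 in CD45- cells, a change of -1.61 ± 0.62 (adjusted p = 0.033). Replicate 3 was low for Ube2c on both sides of the CD45 contrast in tumor-bearing mice and in anemia.

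Espl1 encodes separase, the protease that cuts cohesin, and Pttg1 encodes securin, which holds separase inactive. Espl1 stood at 9.53, 10.1 and 3.74 in tumor CD45+ cells, against 35.8, 29.4 and 23.1 in tumor CD45- cells. Anemia CD45+ cells had 6.21, 7.06 and 2.02, against 27.8, 27.7 and 16.97 in anemia CD45- cells, and neonatal CD45+ cells had 8.43, 12.1 and 5.50, against 28.1, 42.7 and 20.6 in neonatal CD45- cells. All CD45+ libraries of Espl1 were well below the CD45- libraries, with log2 fold changes of -1.87 ± 0.41, -2.14 ± 0.41 and -1.70 ± 0.41, all past the threshold. Pttg1 stood at 7.44, 8.39 and 9.90 in tumor CD45+ cells, against 18.4, 9.63 and 13.7 in tumor CD45- cells. Its values were 15.8, 15.5 and 9.74 in anemia CD45+ cells, against 28.8, 23.2 and 11.4 in anemia CD45- cells, and 11.04, 11.99 and 7.79 in neonatal CD45+ cells, against 14.3, 15.9 and 12.03 in neonatal CD45- cells. The libraries of Pttg1 overlapped in tumor-bearing mice and in anemia and nearly met in neonates, and its log2 fold changes were -0.60 ± 0.32 (adjusted p = 0.11), -0.53 ± 0.32 (adjusted p = 0.16) and -0.43 ± 0.32 (adjusted p = 0.25). With median-ratio scaling the Pttg1 changes passed in all 3 states.

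At the kinetochore, where chromosomes meet microtubules, 3 of 4 genes fell in tumor-bearing mice, 4 in anemia and 2 in neonates. Ndc80 encodes the subunit that grips the microtubule, and Cenpe a motor that carries chromosomes to the metaphase plate. Ndc80 stood at 25.1, 18.3 and 10.97 in tumor CD45+ cells, against 37.1, 27.9 and 28.8 in tumor CD45- cells, and at 13.7, 10.7 and 6.81 in anemia CD45+ cells, against 35.2, 37.03 and 34.4 in anemia CD45- cells. In neonates CD45+ cells had 15.2, 22.6 and 18.9 of Ndc80, against 15.3, 31.8 and 50.1 in CD45- cells, so that CD45- replicate 1 lay within the range of the CD45+ libraries. Its log2 fold changes were -0.81 ± 0.36 (adjusted p = 0.062), -1.73 ± 0.36 (adjusted p = 6.2e-04) and -0.62 ± 0.36 (adjusted p = 0.15). Cenpe stood at 27.4, 30.4 and 15.1 in tumor CD45+ cells, against 74.4, 76.97 and 81.5 in tumor CD45- cells, and at 23.6, 23.1 and 8.17 in anemia CD45+ cells, against 92.1, 88.5 and 75.2 in anemia CD45- cells. In neonates it stood at 28.1, 33.6 and 24.4 in CD45+ cells, against 36.8, 54.1 and 94.6 in CD45- cells. No Cenpe libraries overlapped, and its changes of -1.69 ± 0.38, -2.29 ± 0.38 and -0.99 ± 0.38 passed. Cenpf, for a large kinetochore protein, had log2 fold changes of -2.15 ± 0.49, -2.55 ± 0.49 and -1.80 ± 0.49, all past the threshold, and Nuf2, the partner of NDC80, had -1.15 ± 0.38, -2.41 ± 0.38 and -0.81 ± 0.38 (adjusted p = 0.078).

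All 4 genes of the chromosomal passenger complex fell in all 3 states. Aurkb and Incenp did not pass in tumor-bearing mice without tumor CD45+ replicate 3. Aurkb, Incenp and Cdca8 did not pass in neonates when some single neonatal libraries were left out. This complex of Aurora B kinase, survivin, INCENP and borealin corrects faulty attachments and then acts at the midzone. Aurkb, the kinase, stood at 25.7, 36.5 and 10.2 in tumor CD45+ cells, against 97.1, 67.3 and 41.1 in tumor CD45- cells. Its values were 15.2, 14.8 and 4.59 in anemia CD45+ cells, against 47.3, 49.8 and 29.7 in anemia CD45- cells, and 20.6, 31.98 and 24.2 in neonatal CD45+ cells, against 57.4, 63.9 and 48.4 in neonatal CD45- cells. The Aurkb libraries did not overlap, and the log2 fold changes were -1.55 ± 0.45 (adjusted p = 0.0069), -1.90 ± 0.45 (adjusted p = 0.0017) and -1.13 ± 0.45 (adjusted p = 0.04). Birc5, which encodes survivin, stood at 17.6, 19.1 and 9.04 in tumor CD45+ cells, against 63, 65.2 and 64.8 in tumor CD45- cells. It stood at 19.1, 23 and 4.46 in anemia CD45+ cells, against 79.95, 78.1 and 69.8 in anemia CD45- cells, and at 23.5, 32.6 and 16.1 in neonatal CD45+ cells, against 112, 87.3 and 61.6 in neonatal CD45- cells. The Birc5 libraries were far apart, with changes of -2.07 ± 0.44 in tumor-bearing mice, -2.47 ± 0.44 in anemia and -1.82 ± 0.44 in neonates. Incenp changed by -1.17 ± 0.38, -1.85 ± 0.38 and -1.05 ± 0.38, and Cdca8, for borealin, by -1.60 ± 0.37, -2.14 ± 0.37 and -1.08 ± 0.37.

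Of the 6 genes of spindle kinesins and spindle assembly, 5 fell in tumor-bearing mice, 6 in anemia and 5 in neonates. Kif11 encodes Eg5, the kinesin that pushes the spindle poles apart. It stood at 52.4, 41.4 and 20.6 in tumor CD45+ cells, against 114, 90.7 and 95.8 in tumor CD45- cells, and at 26.6, 23.7 and 9.97 in anemia CD45+ cells, against 107, 97.2 and 86.9 in anemia CD45- cells. Neonatal CD45+ cells had 36.5, 54.9 and 31.5 of Kif11, against 82.02, 95.2 and 102 in CD45- cells. All Kif11 libraries were apart, with changes of -1.46 ± 0.35, -2.32 ± 0.35 and -1.20 ± 0.35. Tpx2, for the protein that activates Aurora A and nucleates microtubules, stood at 36.8, 41.7 and 15.4 in tumor CD45+ cells, against 80.99, 80.1 and 78.2 in tumor CD45- cells. It stood at 22.2, 21.1 and 7.03 in anemia CD45+ cells, against 89.1, 83.7 and 78.2 in anemia CD45- cells, and at 19.03, 31.96 and 27.3 in neonatal CD45+ cells, against 46.6, 46.3 and 78.9 in neonatal CD45- cells. The 3 CD45- tumor libraries of Tpx2 were nearly equal while the CD45+ ones ranged more widely, and the changes were -1.44 ± 0.40, -2.40 ± 0.40 and -1.09 ± 0.40. Hmmr, Nusap1 and Ckap2, which encode proteins that bind spindle microtubules, fell in all 3 states, with Hmmr at -1.64 ± 0.35, -2.60 ± 0.35 and -1.40 ± 0.35 for tumor, anemia and neonates, Nusap1 at -1.77 ± 0.38, -2.35 ± 0.38 and -1.50 ± 0.38 and Ckap2 at -1.76 ± 0.33, -2.23 ± 0.33 and -1.53 ± 0.33. Kif2c, for the kinesin that depolymerises microtubules at centromeres, fell only in anemia (-1.97 ± 0.42, adjusted p = 7.1e-04), with -0.92 ± 0.42 (adjusted p = 0.068) in tumor-bearing mice and -0.54 ± 0.42 (adjusted p = 0.28) in neonates.

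Condensin genes fell for 3 of 4 in tumor-bearing mice and for 4 of 4 in anemia and in neonates. Smc4 encodes an ATPase shared by both condensin complexes, and Ncapd2 a subunit of condensin I. Smc4 stood at 152, 136 and 142 in tumor CD45+ cells, against 289.5, 244 and 317 in tumor CD45- cells, and at 143, 139.5 and 129 in anemia CD45+ cells, against 279.9, 249.8 and 308 in anemia CD45- cells. In neonates it stood at 192, 202 and 129 in CD45+ cells, against 406, 457 and 319.5 in CD45- cells. In tumor-bearing mice and anemia its CD45+ libraries varied little, replicate 3 included, and its changes of -0.97 ± 0.24, -1.01 ± 0.24 and -1.18 ± 0.24 passed. Ncapd2 stood at 288, 242 and 340.2 in tumor CD45+ cells, against 588, 480.4 and 204 in tumor CD45- cells. Its values were 49.4, 43.3 and 16.9 in anemia CD45+ cells, against 382, 543 and 217 in anemia CD45- cells, and 153, 181 and 129 in neonatal CD45+ cells, against 535, 427 and 291 in neonatal CD45- cells. In tumor-bearing mice CD45+ replicates 1, 2 and 3 were all above CD45- replicate 3, and the log2 fold change was -0.43 ± 0.45 (adjusted p = 0.42). Ncapd2 had the largest change of the 40 genes in anemia (-3.38 ± 0.45, adjusted p = 6.1e-06) and also fell in neonates (-1.40 ± 0.45, adjusted p = 0.012). GENCODE places the small nucleolar RNA gene Scarna10 inside Ncapd2 on the same strand, and how reads there were counted is not given in the sources used here, so its values are uncertain. Smc2 changed by -1.46 ± 0.33, -2.05 ± 0.33 and -1.42 ± 0.33, and Ncapg by -1.77 ± 0.34, -2.25 ± 0.34 and -1.62 ± 0.34, all past the threshold.

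For cytokinesis, 5 of 6 genes fell in tumor-bearing mice, 6 in anemia and 3 in neonates. Prc1 encodes the bundler of the central spindle, and Anln encodes anillin, the scaffold of the contractile ring. Prc1 stood at 45.7, 39.5 and 19.8 in tumor CD45+ cells, against 115, 117 and 128 in tumor CD45- cells. Its values were 40.2, 34.5 and 9.47 in anemia CD45+ cells, against 182, 169 and 115 in anemia CD45- cells, and 38.5, 48.6 and 34.4 in neonatal CD45+ cells, against 158, 149 and 118 in neonatal CD45- cells. Prc1 libraries were far apart in every state, with changes of -1.83 ± 0.41, -2.63 ± 0.41 and -1.79 ± 0.41. Anln stood at 18.8, 15.9 and 8.01 in tumor CD45+ cells, against 33.6, 33 and 35.3 in tumor CD45- cells, and at 13.7, 12.9 and 2.39 in anemia CD45+ cells, against 61.8, 55.7 and 38.8 in anemia CD45- cells. In neonates it stood at 15.5, 19.8 and 12.2 in CD45+ cells, against 29.4, 30.98 and 41.8 in CD45- cells. Anln replicate 3 of anemia CD45+ cells was far below the other libraries of its group, and the changes were -1.27 ± 0.44 (adjusted p = 0.018), -2.56 ± 0.44 (adjusted p = 9.2e-05) and -1.06 ± 0.44 (adjusted p = 0.045). Ect2, the exchange factor that switches on RhoA at the furrow, fell in all 3 states, at -1.22 ± 0.36, -2.25 ± 0.36 and -1.40 ± 0.36. Its partners Kif23 and Racgap1, the centralspindlin subunits, fell in tumor-bearing mice (-1.09 ± 0.30 and -1.15 ± 0.37) and anemia (-1.74 ± 0.30 and -1.74 ± 0.37) but did not pass in neonates (-0.69 ± 0.30, adjusted p = 0.059, and -0.79 ± 0.37, adjusted p = 0.071). Kif20a, for a kinesin of the midzone, passed only in anemia (-1.96 ± 0.35), with -0.75 ± 0.35 (adjusted p = 0.073) in tumor-bearing mice and -0.73 ± 0.35 (adjusted p = 0.081) in neonates.

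Whether the CD45 contrast itself differed between the states was tested with interaction terms. Between anemia and neonates it was larger in anemia for Plk1, Bub1 and Bub1b. Their differences in log2 fold change, anemia minus neonatal, were -1.64 ± 0.45 (adjusted p = 0.036), -1.61 ± 0.40 (adjusted p = 0.021) and -1.44 ± 0.41 (adjusted p = 0.041). The other 37 genes did not pass, 39 of 40 differences were negative and the median was -1.05, against 6.93% of all genes called and a median of -0.04 (2.8% called in the negative direction). With the replicate number as a block, 7 passed. This block was shared by all 6 groups of the fit, so it also tied libraries of different states. Same-numbered libraries of anemia CD45- and neonatal CD45- cells did not deviate together (r = 0.008, -0.170 and -0.082). The median was -0.67 without replicate 3 of anemia CD45+ cells. Between tumor-bearing mice and anemia only Ncapd2 passed, at 2.96 ± 0.63 (adjusted p = 0.019), with -0.43 in tumor-bearing mice and -3.38 in anemia. The median of the 40 genes was 0.83 there, against 0.03 in all genes, of which 2.2% were called (1.8% in the positive direction). That median was 0.40 without replicate 3 of anemia CD45+ cells. Between tumor-bearing mice and neonates none of the 40 passed in limma, none had an unadjusted p under 0.05 and the median was -0.23, against 1.08% of all genes called. The sign of that median turned without replicate 3 of tumor CD45+ cells, to 0.12. The interaction terms share groups with the CD45 contrasts above and are not independent of them. Without replicate 3 of tumor CD45+ cells, 6 genes passed for tumor against anemia, all positive, and 599 of 11113 genes were called in that direction. For anemia against neonates the count was 0 without neonatal CD45+ replicate 2 or neonatal CD45- replicate 1. It was 1 without any single one of tumor CD45- replicate 2, anemia CD45+ replicate 3, anemia CD45- replicate 1 or 2, neonatal CD45+ replicate 1 or 3, or neonatal CD45- replicate 2. For tumor against anemia, leaving out replicate 1 of tumor CD45+ cells or replicate 2 of anemia CD45- cells gave 0.

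Set against each other directly, the CD45+ cells of tumor-bearing mice had more of 3 mitotic gene RNAs than those of anemia. These were Ncapd2 (3.07 ± 0.45, adjusted p = 2.7e-04), Plk1 (1.36 ± 0.32, adjusted p = 0.01) and Kif20a (1.23 ± 0.35, adjusted p = 0.03). Of all genes 5.82% were higher in that comparison, and 3 of 40 is near that share. Ncapd2 averaged 290 ± 49.2 in tumor CD45+ cells and 36.5 ± 17.2 in anemia CD45+ cells (SD, n = 3 each), and the libraries were apart by a wide margin. Plk1 averaged 25.7 ± 10.1 in tumor CD45+ cells and 9.12 ± 2.85 in anemia CD45+ cells, and the libraries did not overlap. Kif20a stood at 31.6, 28.9 and 10.1 in tumor CD45+ cells, against 10.2, 12.4 and 4.66 in anemia CD45+ cells, and overlapped through tumor replicate 3. The other 37 did not pass, 39 of 40 fold changes were positive, 23 had an unadjusted p under 0.05 and the median was 0.80, against -0.03 in all genes. Without replicate 3 of anemia CD45+ cells the median was 0.45 and 5 had an unadjusted p under 0.05. Without tumor CD45+ replicate 1 the median was 0.57 and 4 did, and without tumor CD45+ replicate 2 it was 0.64 and 5 did. The number that passed also depended on single libraries, with 24 genes higher without tumor CD45+ replicate 3, 1 without replicate 1 or without replicate 2, and 10 without replicate 3 of both groups. In all genes 1024 of 11113 were higher without tumor CD45+ replicate 3, 382 of 11148 without replicate 1 and 405 of 11154 without replicate 2. Of the 12 neutrophil and MDSC markers 11 were higher in tumor CD45+ than in anemia CD45+ cells, and of the B cell markers 5 of 6 and of the T and NK cell markers 6 of 7 were lower, against 4.91% of all genes lower. Their part in the mitotic genes was not tested.

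Against neonatal CD45+ cells, 12 of the 40 genes were lower in anemia CD45+ cells and 28 did not pass, with a median of -0.85 against -0.03 in all genes, of which 11.3% were lower. The 12 were Ncapd2 (-2.17 ± 0.45, adjusted p = 0.002), Cdk1 (-2.04 ± 0.52, adjusted p = 0.009), Cdca8, Incenp, Racgap1, Kif20a, Kif23, Kif11, Ncapg, Bub1, Mad2l1 and Bub1b. All 3 checkpoint genes were among them, with Bub1 at -0.99 ± 0.28 (adjusted p = 0.019), Mad2l1 at -0.98 ± 0.27 (adjusted p = 0.015) and Bub1b at -0.90 ± 0.29 (adjusted p = 0.034). The only gene on the higher side was Pttg1, at 0.37 ± 0.32 (adjusted p = 0.46). The libraries did not overlap for 23 of the 40 genes, against 22.2% of all genes on the lower side. Without neonatal CD45+ replicate 2 the count was 1, without neonatal CD45+ replicate 1 it was 6 and without anemia CD45+ replicate 3 it was 3, with a median of -0.42. With median-ratio scaling it was 4, and 977 of 11004 genes were lower in that fit. Neutrophil and MDSC markers were lower in anemia for 11 of 12, monocyte markers for 4 of 6 and early progenitor markers for 3 of 4. Megakaryocyte markers were lower for 2 of 3. B cell markers were higher in anemia for 6 of 6 and T and NK cell markers for 7 of 7. Erythroid markers were higher for 1 of 9. In all genes 1016 were higher in anemia in this comparison, somewhat fewer than the 1261 (11.3%) that were lower. The 1 of 9 erythroid markers is near that share of all genes. The part of these lists in the mitotic genes was not tested.

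No mitotic gene passed between the CD45+ cells of tumor-bearing mice and of neonates in limma, where 6.61% of all genes were called, and none had an unadjusted p under 0.05. The fold changes ran from -0.70 ± 0.52 for Cdk1 to 0.91 ± 0.45 for Ncapd2, with a median of -0.17 against -0.02 in all genes. The sign rested on 1 library, since without replicate 3 of tumor CD45+ cells the median was 0.20 and 2 genes had an unadjusted p under 0.05. Without neonatal CD45+ replicate 2 it was -0.02. Ccnb1 averaged 44.3 ± 28.8 in tumor CD45+ cells and 42.5 ± 16.5 in neonatal CD45+ cells, and Mki67 207 ± 89.4 and 207 ± 54.3 in the same order (SD, n = 3 each). Standard errors of 0.24 to 0.62 over the 40 genes limit the size of a difference that these libraries could show.

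In CD45- cells the median fold changes between states were close to 0. None of the 40 passed in limma between tumor-bearing mice and anemia (0.152% of all genes called), between tumor-bearing mice and neonates (2.54%) or between anemia and neonates (4.34%). An unadjusted p under 0.05 was found for 0, 0 and 4 of the 40 genes, the 4 being Ttk, Bub1, Plk1 and Nuf2, all on the higher side in anemia. The medians were 0.02, 0.06 and 0.06, against -0.06, -0.07 and -0.01 in all genes. Leaving out each library in turn gave medians on both sides of 0, from -0.13 to 0.02, from -0.05 to 0.14 and from -0.01 to 0.17. Mki67 averaged 1049 ± 181 in tumor CD45- cells, 1009 ± 196 in anemia CD45- cells and 998 ± 130 in neonatal CD45- cells (SD, n = 3 each). The widest differences were 0.64 ± 0.45 (adjusted p = 0.88) for Aurkb and -0.58 ± 0.44 (adjusted p = 0.9) for Anln between tumor-bearing mice and anemia, 0.84 ± 0.42 (adjusted p = 0.47) for Kif2c and -0.47 ± 0.24 (adjusted p = 0.49) for Smc4 between tumor-bearing mice and neonates, and 0.98 ± 0.38 (adjusted p = 0.19) for Nuf2 and -0.59 ± 0.38 (adjusted p = 0.48) for Incenp between anemia and neonates. When replicate 3 of all 6 groups was left out, 2, 8 and 12 genes passed in the 3 comparisons. The shares of all genes above are of the main fit, so these counts cannot be read against them.

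The MDSC of tumor-bearing mice gave a comparison outside the erythroid gate. None of the 40 genes passed between tumor CD45+ cells and MDSC in limma, where 6.42% of all genes were called, and 2 (Bub1b and Ncapd2) had an unadjusted p under 0.05. The fold changes ran from -0.74 ± 0.36 (adjusted p = 0.26) for Kif20a to 0.87 ± 0.36 (adjusted p = 0.18) for Ncapd2, 38 of 40 were negative and the median was -0.39, against 0.16 in all genes. Leaving out tumor CD45+ replicate 3 gave a median of -0.02, and 0 genes then had an unadjusted p under 0.05, while leaving out replicate 1 gave -0.62. With median-ratio scaling the median was -0.69, and 13 genes had an unadjusted p under 0.05 but none passed. With equal sums without haemoglobin genes the median was -0.19. Besides Ncapd2 only Pttg1 was on the positive side, at 0.11 ± 0.30. Ncapd2 stood at 288, 242 and 340.2 in tumor CD45+ cells, against 151, 175 and 146 in MDSC, with no overlap. Of the calls among all genes 84.5% were higher in tumor CD45+ cells, against 51.2% with median-ratio scaling and 65.7% with quantile normalization. Mki67 stood at 241, 273 and 105 in tumor CD45+ cells, against 248, 214 and 286 in MDSC, and Bub1b at 26.6, 27.8 and 15.3 in tumor CD45+ cells, against 34.4, 32.6 and 32.5 in MDSC. The Mki67 libraries overlapped except for the low tumor replicate 3, and the Bub1b libraries did not overlap. Of the 12 neutrophil and MDSC markers 2 were lower in tumor CD45+ cells and 10 did not pass, with a median of -1.36, while 8 of 9 erythroid, 5 of 6 B cell and 5 of 7 T and NK cell markers were higher. In all genes 5.42% were higher and 0.995% lower. Of the remaining lists, 0 of 5 monocyte, 0 of 2 megakaryocyte and 0 of 3 early progenitor markers passed.

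Tumor CD45- cells had more mitotic gene RNA than MDSC. Of the 40 genes 23 were higher, none lower and 17 did not pass, with a median of 0.92 against -0.56 in all genes, of which 14.3% were higher. All 40 fold changes were positive, and the libraries did not overlap for 34 genes, against 17.2% of all genes on the higher side. Mki67 stood at 1225, 1058 and 864 in tumor CD45- cells, against 248, 214 and 286 in MDSC, a change of 2.06 ± 0.35 (adjusted p = 4.2e-04), the largest of the 40. Espl1 stood at 35.8, 29.4 and 23.1 in tumor CD45- cells, against 9.59, 9.33 and 6.18 in MDSC, a change of 1.70 ± 0.34 (adjusted p = 0.0014). Birc5 stood at 63, 65.2 and 64.8 in tumor CD45- cells, against 19.3, 17.9 and 21.01 in MDSC, a change of 1.68 ± 0.27 (adjusted p = 2.7e-04). For these genes every tumor CD45- library was far above every MDSC library. Plk1 and Kif20a were at the other end, with Plk1 at 36.2, 35.6 and 44.3 in tumor CD45- cells, against 44.7, 35.4 and 27.4 in MDSC (0.13 ± 0.32, adjusted p = 0.75), and Kif20a at 38.1, 34.2 and 36.4 in tumor CD45- cells, against 39.4, 35.98 and 32.6 in MDSC (0.01 ± 0.36, adjusted p = 0.98). Both of these overlapped between the groups. By role, 4 of 4 chromosomal passenger and 4 of 4 condensin genes were higher, 5 of 6 spindle genes, 2 of 6 cytokinesis genes, 1 of 4 cyclin and CDK1 genes and 0 of 3 checkpoint genes. The count was 15 without tumor CD45- replicate 1 and 15 without MDSC replicate 2, and 39 with median-ratio scaling. With that scaling 2871 of 10093 genes were higher. Of the calls among all genes 25.4% were higher in tumor CD45- cells, against 47.7% with median-ratio scaling and 51.5% with quantile normalization. All 9 erythroid markers were higher and all 12 neutrophil and MDSC markers lower in tumor CD45- cells than in MDSC, against 14.3% of all genes higher and 42.1% lower.

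**Figure D4:**
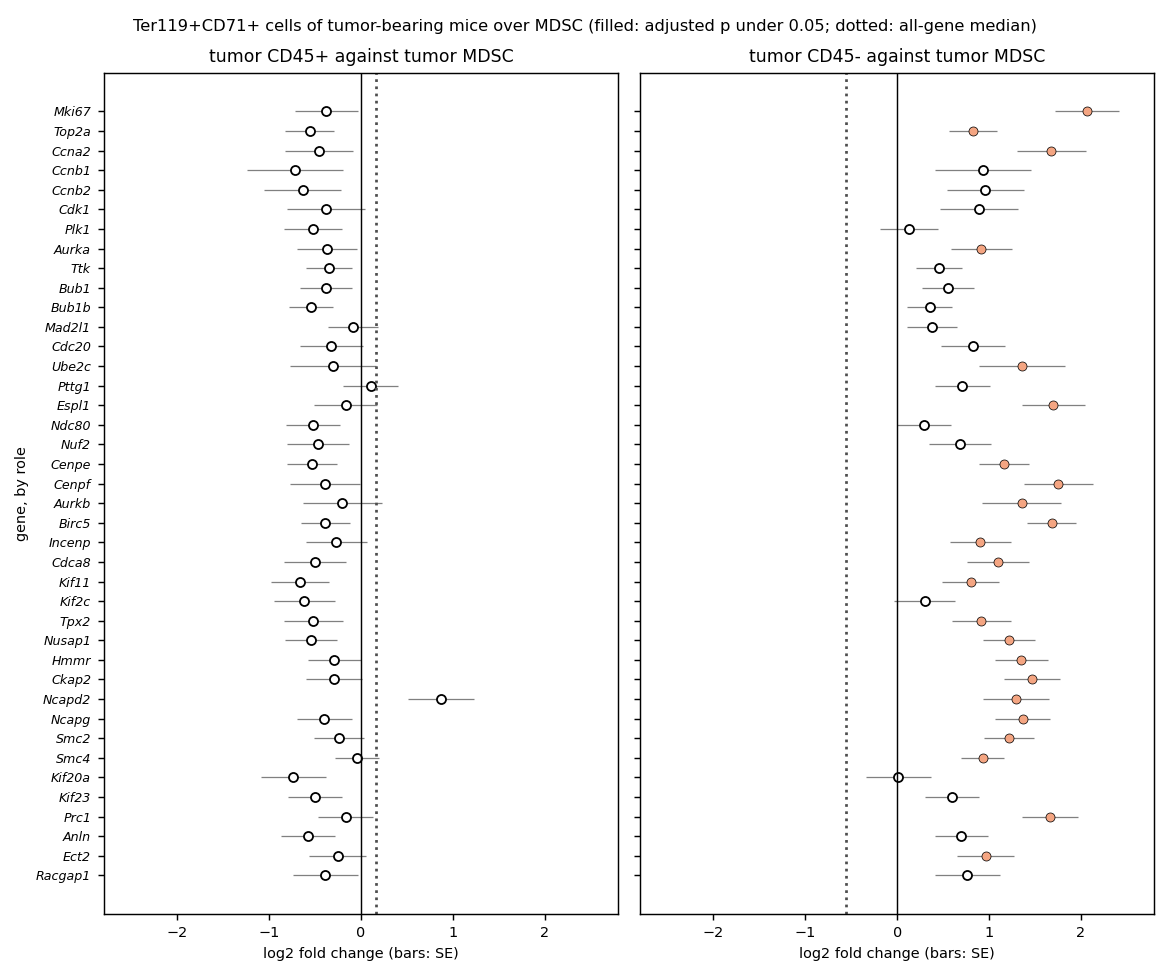
Log2 fold change of tumor CD45+ cells (left) and tumor CD45- cells (right) over MDSC for each gene, with standard errors as bars and filled points for those that passed. On the left no point is filled and the median is -0.39, and on the right all points are above 0 and 23 are filled.

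The rest of the pathway moved in part with the 40 genes. Other kinetochore and centromere genes fell for 28, 34 and 22 of 37 tested in tumor-bearing mice, anemia and neonates, with medians of -1.0, -1.39 and -0.84, and rose for 1, 0 and 0. Cenpk, for a protein of the inner kinetochore, stood at 9.11, 10.4 and 5.66 in tumor CD45+ cells, against 26.1, 34.3 and 52.2 in tumor CD45- cells, a change of -2.02 ± 0.33 (adjusted p = 4.9e-05). Genes of DNA replication and the step from G1 to S phase fell for 25, 33 and 24 of 36, with none higher and medians of -1.07, -1.70 and -0.97. Orc1, which encodes the largest subunit of the origin recognition complex, stood at 7.49, 7.96 and 3.1 in tumor CD45+ cells, against 29.8, 28.6 and 33.2 in tumor CD45- cells, a change of -2.21 ± 0.29 (adjusted p = 5.5e-06). Other mitotic cyclin, CDK and checkpoint control genes fell for 9, 19 and 7 of 23, with none higher and medians of -0.74, -1.40 and -0.46. Cdc25b, for a phosphatase that activates CDK1, stood at 20.5, 33.8 and 13.6 in tumor CD45+ cells, against 188, 162 and 89.3 in tumor CD45- cells, a change of -2.66 ± 0.49 (adjusted p = 1.8e-04).

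The other lists were mixed. In all genes tested 50.2%, 47.4% and 49.6% rose in tumor-bearing mice, anemia and neonates and 10.9%, 11.3% and 10.3% fell, and the number of risers in each list that follows is a smaller share of the list than that. Other spindle kinesin and centrosome genes fell for 18, 21 and 13 of 32 and rose for 2 in each state, with medians of -0.85, -1.63 and -0.63. In tumor-bearing mice the risers were Cep55 and Fam64a. Cep55, for a protein of the midbody, stood at 11.1, 11.1 and 5.93 in tumor CD45+ cells, against 0.1, 0.135 and 0.101 in tumor CD45- cells, a change of 3.18 ± 0.26 (adjusted p = 2.4e-08). Fam64a stood at 8.09, 9.37 and 1.61 in tumor CD45+ cells, against 0.107, 0.0491 and 0 in tumor CD45- cells, a change of 2.57 ± 0.36 (adjusted p = 1.1e-05). Other condensin and cohesin genes fell for 7, 9 and 6 of 18 and rose for 1, 3 and 2, with medians of -0.35, -0.59 and -0.33. Genes of the APC/C fell for 3, 4 and 3 of 17 and rose for 4, 1 and 3, with medians of 0.14, 0.13 and 0.28. Fzr1, for the CDH1 activator of the APC/C, stood at 28, 38.3 and 16 in tumor CD45+ cells, against 232, 187 and 110 in tumor CD45- cells, a change of -2.66 ± 0.59 (adjusted p = 8.9e-04).

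Other cytokinesis genes rose for 5, 5 and 6 of 18 and fell for 3, 5 and 2, with medians of 0.18, 0.25 and 0.49, below those of all genes (0.75, 0.68 and 0.75). Among those that rose was Myh9, for the heavy chain of non-muscle myosin IIA, at 316, 330 and 233 in tumor CD45+ cells, against 48.5, 47.9 and 50.2 in tumor CD45- cells (2.54 ± 0.24, adjusted p = 9.8e-08). CDK inhibitors and genes of cell cycle exit rose for 7, 8 and 8 of 21 and fell for 5, 5 and 6, with medians of -0.03, 0.46 and 0.95, so that the share that rose was again below that of all genes. Klf2, for a transcription factor of quiescent lymphocytes, stood at 86.2, 121 and 82 in tumor CD45+ cells, against 0.641, 0.615 and 0.0922 in tumor CD45- cells (6.07 ± 0.40, adjusted p = 1.7e-09). Rbl2, which encodes the pocket protein p130, stood at 16.3, 17.2 and 27.7 in tumor CD45+ cells, against 4.34, 3.35 and 6.54 in tumor CD45- cells (1.90 ± 0.27, adjusted p = 1.4e-05). With MDSC as the other group, none of the kinetochore, other mitotic, spindle, cytokinesis, condensin or APC/C genes of these lists passed for tumor CD45+ cells. Only Gins3 on the replication list (1.20 ± 0.29) and Ccnd2 on the exit list (1.41 ± 0.32) did, both higher in tumor CD45+ cells. Ccnd2 encodes cyclin D2, which is neither a CDK inhibitor nor a gene of cell cycle exit, although that list held it.

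**Figure D5:**
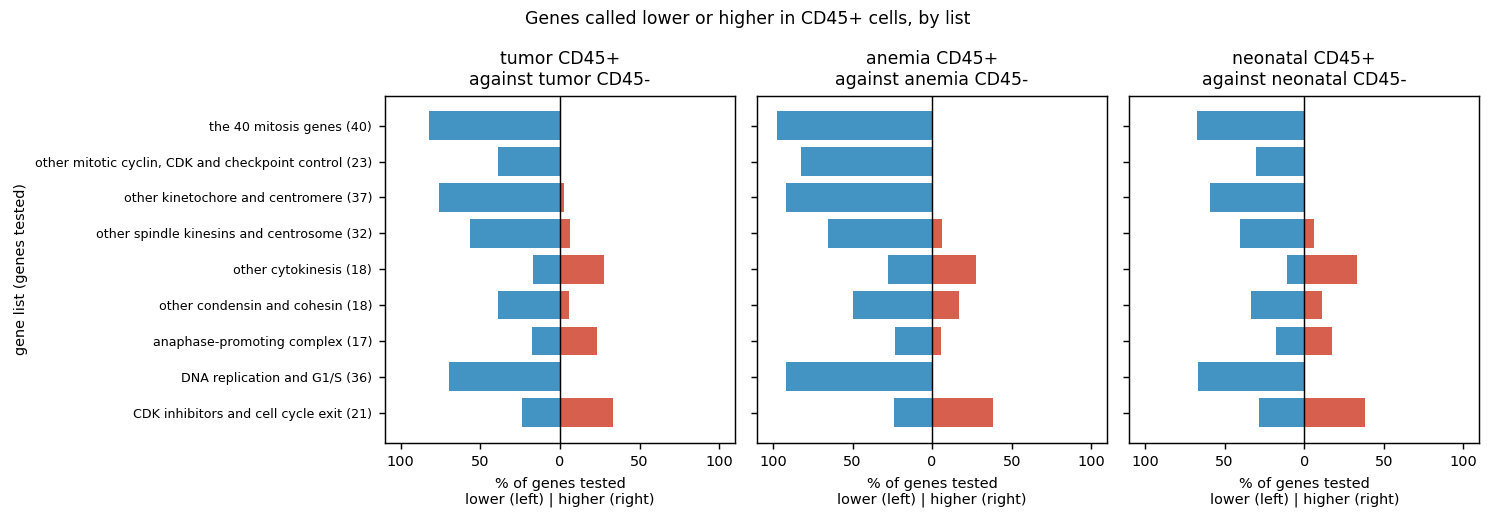
Share of the tested genes of each list that were higher or lower in CD45+ than in CD45- cells, in tumor-bearing mice, anemia and neonates. Calls among the 40 mitosis genes and the kinetochore and replication lists lie on the lower side but for 1 kinetochore gene in tumor-bearing mice, and the cytokinesis, APC/C and exit lists lie on both sides.

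Some values may hold reads of another gene, since the counting tool and its use of strand are not given in the sources used here. Exons of an opposite-strand gene in GENCODE overlap those of Ccna2 (Exosc9), Cdc20 (Elovl1), Kif20a (Cdc23), Ncapg (Lcorl), Nusap1 (Oip5), Plk1 (Gm44985), Prc1 (Rccd1) and Ube2c (Tnnc2). Transcripts that match over at least 200 bases at 95% identity or more exist for Ccnb1 (4 pseudogenes), Mad2l1 (Gm42430), Mki67 (Gm44521), Ndc80 (2700099C18Rik and Gm47120) and Racgap1 (AC148020.1). Small RNA genes lie on the same strand inside Smc4 (Mir15b and Mir16-2), Tpx2 (Mir5622) and Top2a (Gm23451). Ribosomal RNA genes lie so inside Ndc80 (Gm23115) and Nusap1 (n-R5s204), a processed pseudogene inside Kif11 (AC137605.4), and other transcripts inside Anln (Gm48646), Incenp (AC132253.8) and Ncapd2 (Gm28967, beside Scarna10). Values of these genes are uncertain to the extent that reads were split or shared.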

How the data were processed

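RNA from 21 libraries in 7 groups of 3 was sequenced, and read depth is not given in the sources used here. Bowtie 0.12.2 and the mouse build mm8 are named in the submitters' processing notes. The deposited table holds log2 expression values that the authors computed per gene and library. The quantity behind the log and its normalization are not given. The 40 genes and all other lists were chosen with earlier results of these data known.

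Values were raised as powers of 2, and the blank cells of the table (23668, 7.90%) were set to 0. Tests covered genes that reached 1 in 3 or more libraries and were run on log2(value + 1), a pseudocount that understates changes of low genes. limma 3.58.1 (trend and robust options, statmod 1.5.0, R 4.3.3) fitted the 18 Ter119+CD71+ libraries together (11195 genes) for the CD45 contrasts, their interactions and the comparisons of states, and the 9 tumor libraries (10255 genes) for the comparisons with MDSC. P-values are two-sided and adjusted by Benjamini-Hochberg over all genes tested. The fits were tested on simulated data. Values by library are given for 22 genes with at least 1 per role, for genes that differ from most of the list and for the extremes of a comparison, and of each other list at most 4 genes with the smallest adjusted p are named.

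Deviations of same-numbered libraries from their group means had an r over 0.1 for every replicate in some comparisons. These were the 3 CD45 contrasts, tumor CD45+ against neonatal CD45+ cells and tumor CD45+ cells against MDSC, with r from 0.106 to 0.384. Differently numbered libraries were not compared, and tumor-bearing and neonatal mice are different animals. The r values therefore cannot show that the titles' numbers pair libraries, and the main fits did not pair them. Alternatives were a pseudocount of 0.1, no filter, median-ratio size factors, quantile normalization, equal sums without haemoglobin genes, a replicate block, all 21 libraries in a single fit and leaving out each library. Leaving out replicate 3 of tumor CD45+ and anemia CD45+ cells, or of all 6 Ter119+CD71+ groups, was chosen after seeing the data. Promoters are from RefSeq (GRCm38.p6), gene overlaps from GENCODE.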

Additional observations from a re-analysis of the deposited data

Results flagged for a closer look

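The CD45 contrast differed between states by the interaction test for 4 genes, 3 for anemia minus neonatal and 1 for tumor minus anemia. In all genes 6.93% were called for anemia minus neonatal (2.8% in the negative direction). For tumor minus anemia 2.2% of all genes were called (1.8% in the positive direction). The counts of 3 and 1 of 40 are near the shares called in both directions together. For Plk1, Bub1 and Bub1b the log2 fold change of CD45+ over CD45- cells was more negative in anemia than in neonates, with differences of -1.64 for Plk1, -1.61 for Bub1 and -1.44 for Bub1b. Over 27 alternatives the Plk1 difference ran from -1.84 to -1.37 and missed the threshold in 15, with adjusted p from 0.0022 to 0.11. Bub1 ran from -1.77 to -1.34 and missed it in 3 (adjusted p from 0.0014 to 0.06), and Bub1b ran from -1.64 to -1.09 and missed it in 14 (adjusted p from 0.0024 to 0.1). In CD45- cells the log2 fold changes of anemia over neonates were 0.77 ± 0.32 (adjusted p = 0.22) for Plk1, 0.61 ± 0.28 (adjusted p = 0.28) for Bub1 and 0.54 ± 0.29 (adjusted p = 0.37) for Bub1b, none of which passed.

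For Ncapd2 the CD45 contrast in tumor-bearing mice exceeded that in anemia by 2.96. Over the alternatives it ran from 2.26 to 3.31, and it missed the threshold in 3 of 27, which were median-ratio scaling and leaving out tumor CD45+ replicate 1 or anemia CD45- replicate 2 (adjusted p from 0.00068 to 0.07). The part of the small RNA gene nested in Ncapd2 was not tested.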

How the results depend on the processing

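Under every alternative run the median of the 40 genes kept its sign in the 3 CD45 contrasts and in tumor CD45- cells against MDSC, and in no alternative did the direction of a called gene reverse. Leaving out each library in turn gave 19 to 35 genes called in the tumor CD45 contrast, 39 to 40 in anemia and 18 to 31 in neonates. It gave 1 to 24 for tumor against anemia CD45+ cells, 0 to 0 for tumor against neonatal CD45+ cells and 1 to 18 for anemia against neonatal CD45+ cells. It gave 0 to 0, 0 to 0 and 0 to 1 for the 3 comparisons of CD45- cells, 0 to 6, 0 to 0 and 0 to 4 for the interactions (tumor minus anemia, tumor minus neonatal, anemia minus neonatal), 0 to 1 for tumor CD45+ cells against MDSC and 15 to 31 for tumor CD45- cells against MDSC.

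Median-ratio scaling gave 4 genes for anemia against neonatal CD45+ cells, 0 for the tumor minus anemia interaction, 2 for the anemia minus neonatal interaction and 39 for tumor CD45- cells against MDSC. It gave 40 in each of the tumor, anemia and neonatal CD45 contrasts, where 2852, 2812 and 2694 of 11004 genes fell. Equal sums without haemoglobin genes gave 8, 1, 1 and 38 for the same 4 comparisons, and a pseudocount of 0.1 gave 1 for the anemia minus neonatal interaction. The replicate block used the numbers as pairing across all groups of a fit, not within each state alone. It gave 34, 39 and 30 genes in the CD45 contrasts. For their interactions (tumor minus anemia, tumor minus neonatal, anemia minus neonatal) the block gave 1, 0 and 7. It gave 0 for tumor CD45+ cells against neonatal CD45+ cells and against MDSC. Among these it moved only the anemia minus neonatal count, of 3, by over 1.5 times. Where some same-numbered libraries had an r under 0.1, the block gave 11 for tumor against anemia CD45+ cells. There it also gave 17 for anemia against neonatal CD45+ cells, 0 for each comparison of states in the CD45- fraction, and 27 for the tumor CD45- fraction against MDSC.

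Without replicate 3 of tumor CD45+ and anemia CD45+ cells, chosen after seeing the data, the counts were 26, 10 and 4 for the tumor CD45 contrast, tumor against anemia CD45+ cells and the tumor minus anemia interaction. Without replicate 3 of all 6 groups, also chosen after seeing the data, they were 26, 6 and 22 for the CD45+ comparisons (tumor against anemia, tumor against neonatal, anemia against neonatal). They were 2, 8 and 12 for the same comparisons of CD45- cells, 13 for the tumor minus anemia interaction and 18 for the anemia minus neonatal one. The shares of all genes called in these fits are not given, so these counts are not read against one. The cause of these shifts was not tested. Another scaling also moved the share of calls among all genes that were higher by over 10 points elsewhere. For anemia against neonatal CD45+ cells it was 44.6%, against 57.7% without haemoglobin genes, and for tumor against anemia CD45+ cells 54.2%, against 41.6%. Read depth is not known, so its limit on the low genes cannot be given.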
